A study of Mus musculus with 6 samples.

Results

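The genes that move zinc and magnesium across membranes, and the metallothioneins that bind zinc inside the cell, were followed in mouse cumulus cells before and after the ovulatory stimulus. They were chosen by name from the genes of the array, as every gene of the Slc30a, Slc39a, Slc41a and Cnnm families and Mt1 to Mt4, each read by 1 probe set (a group of short probes against 1 transcript). Of several probe sets the brightest on average was used. This gave 35 of 18194 measured genes, namely 10 Slc30a, 14 Slc39a, 3 Slc41a and 4 Cnnm genes and 4 metallothioneins.

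Cumulus cells are the somatic cells wrapped around the oocyte. All samples came from wild-type females given 5 IU of equine chorionic gonadotropin (eCG) at 21 days of age for 46 h, which makes follicles grow. The 3 samples of the hCG-0h group were taken then, without human chorionic gonadotropin (hCG), and the 3 samples of the hCG-6h group were taken 6 h after 5 IU of hCG, which stands in for the ovulatory surge. Every sample pooled cells from 50 cumulus-oocyte complexes and took 1 array. The labels also give an age of 23 days at isolation, and the medium held milrinone, which keeps oocytes arrested. The description fields of hCG-6h samples 2 and 3 name 7 h and 8 h, against 6 h in their titles. No group spent the same time without hCG, so the hormone and the elapsed time cannot be told apart. The labels do not tie samples to animals, so the spread behind each p-value may be technical.

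Zinc leaves the cytosol, to the outside or into vesicles and organelles, through the ZnT proteins encoded by Slc30a genes, and enters it through the ZIP proteins encoded by Slc39a genes. Metallothioneins are small cysteine-rich proteins that buffer zinc and copper. The genes Mt1 and Mt2 are switched on by the zinc-sensing factor MTF1 through metal response elements, as well as by glucocorticoids. Oocytes are known to take up zinc as they mature and to release part of it at fertilisation. SLC41 proteins carry magnesium, and CNNM proteins are tied to magnesium efflux, although it is debated whether they are themselves carriers.

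The 4 metallothionein genes lie on 1 strand of chromosome 8 in the order Mt4, Mt3, Mt2, Mt1, and the 250 bases upstream of their annotated starts are shown because Mt1 and Mt2 are known to answer to zinc through such elements and the 4 genes differed in their values. The sequences are from RefSeq (GRCm38.p6, plus strand, Mt1 at chr8:94178839-94179088, Mt2 at chr8:94172368-94172617, Mt3 at chr8:94152357-94152606 and Mt4 at chr8:94136954-94137203). Capitals mark the core of the metal response element, searched on both strands as TGCACNC or TGCGCNC.
Mt1: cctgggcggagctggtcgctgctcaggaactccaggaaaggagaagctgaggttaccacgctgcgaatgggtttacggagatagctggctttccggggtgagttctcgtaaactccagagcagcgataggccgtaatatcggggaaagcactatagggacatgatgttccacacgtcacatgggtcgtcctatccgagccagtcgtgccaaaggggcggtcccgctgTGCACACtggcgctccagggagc
Mt2: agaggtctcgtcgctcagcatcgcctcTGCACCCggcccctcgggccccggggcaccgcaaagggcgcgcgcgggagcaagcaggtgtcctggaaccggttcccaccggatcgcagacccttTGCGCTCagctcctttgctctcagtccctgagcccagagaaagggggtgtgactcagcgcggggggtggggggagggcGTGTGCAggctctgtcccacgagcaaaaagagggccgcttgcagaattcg
Mt3: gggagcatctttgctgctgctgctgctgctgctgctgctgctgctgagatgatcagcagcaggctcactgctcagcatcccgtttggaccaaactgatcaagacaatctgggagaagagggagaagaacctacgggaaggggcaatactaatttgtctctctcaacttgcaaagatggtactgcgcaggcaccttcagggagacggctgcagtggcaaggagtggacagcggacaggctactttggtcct
Mt4: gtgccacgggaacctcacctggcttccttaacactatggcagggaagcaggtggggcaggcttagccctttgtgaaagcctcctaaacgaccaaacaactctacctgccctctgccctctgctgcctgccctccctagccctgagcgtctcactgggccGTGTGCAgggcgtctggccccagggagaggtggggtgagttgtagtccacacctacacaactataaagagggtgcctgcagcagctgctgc

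The stretch before Mt2 held 3 cores, starting 223 and 128 bases upstream on the strand shown and 50 bases upstream on the other strand. The stretches before Mt1 and Mt4 each held 1, and that before Mt3 held 0 with these letters. The annotated start of Mt1 lies upstream of its classically described start. A further 2 cores of Mt1 lay within the 50 bases after the annotated start, so its count of 1 depends on that start and says nothing of how many elements its promoter holds. Among all 32851 promoter windows of the table, 21.4% held at least 1 core in the same 250 bases and 1.26% held at least 3. Windows were used for 31 of the 35 genes, and none for Slc30a8, Slc39a4, Slc39a6 and Slc39a14. Any member windows on 1 chromosome were set aside by choice, so the genes just named did not all necessarily lack a window. That chromosome stayed among the 32851 windows. At least 1 core was found in 19 of the 36 member windows used (52.8%). Counted by gene, at least 1 core stood before 4 of 9 genes that passed the test described next and before 14 of 22 that did not. Slc30a10 was the other gene with 3 cores upstream, 2 of them the same letters read on the opposite strands, and it did not pass. Over the full windows, which add 50 bases after the start, Mt1 held 3 cores and Mt2 held 4. A match of letters is a description and no evidence of binding.

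Values are log2 expression values, so a difference of 1 is a 2-fold difference, and a change is hCG-6h minus hCG-0h. A gene was counted as higher or lower when its adjusted p was under 0.05 (limma, Benjamini-Hochberg over all 18194 genes). Of the 35 genes, 6 rose after hCG and 5 fell, which is 31.4%, against 21.3% of all genes in either direction. The share of all genes was 10.8% for higher and 10.5% for lower, beside 17.1% and 14.3% here. Higher were Slc41a2, Mt2, Slc39a10, Slc39a14, Slc39a9 and Slc39a1, and lower were Cnnm1, Slc39a11, Slc30a9, Cnnm3 and Slc30a8. The values of the groups did not overlap in 16 of 35 genes (45.7%), beside 37.9% of all genes. The 35 genes were brighter than most, with a median level of 8.63 beside 7.22 over all genes. A fit without the dimmest 1 in 3 of all genes (6062 of 18194) called 3828 genes, beside 3873 with them. Of the 28 members in it, 6 were higher and 4 lower. Of all genes in that fit, the share called was therefore above 21.3%. Hence the shares of all genes given above are not taken at like brightness. Both fits adjust p over their own number of genes, so these counts do not give the number of dim genes called. The median change of the 35 genes was 0.09, beside 0.01 over all genes, and the median of the absolute changes was 0.24 beside 0.23. The change was 2-fold or more in 5 members, namely Cnnm1, Slc41a2, Mt2, Slc39a10 and Slc39a11. Leaving out 1 sample at a time gave 4 to 7 members higher and 3 to 4 lower. The count of 3 came without sample 1 or sample 2, of either group. With hCG-6h sample 1 alone, only 3 were higher (Slc41a2, Mt2 and Slc39a14) and 1 lower (Cnnm1).

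**Figure D1:**
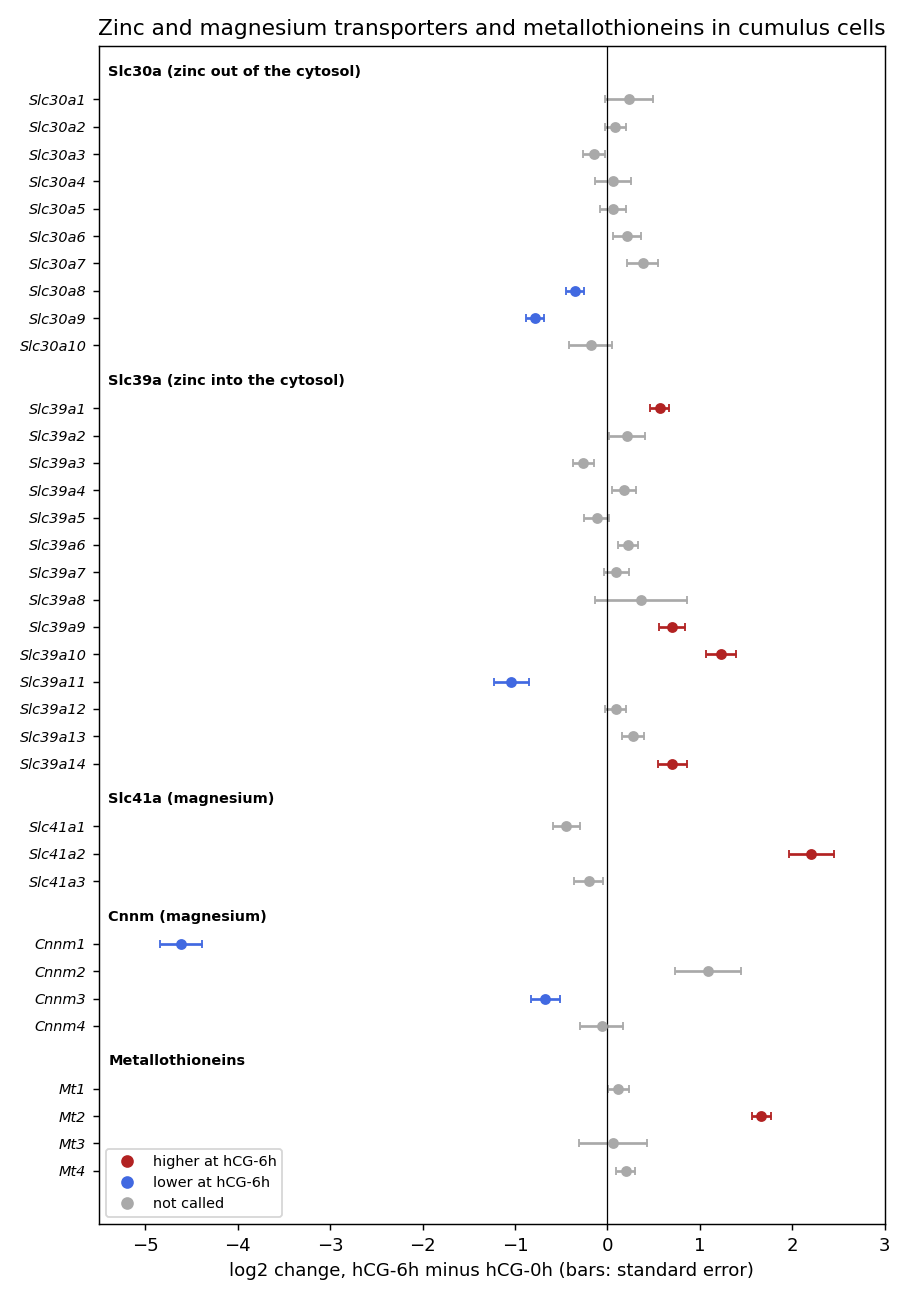
Change of each of the 35 genes in log2 units (x axis, hCG-6h minus hCG-0h, with the standard error) by family, with genes that passed the test in red (higher) or blue (lower) and the others in grey. Cnnm1 stands far to the left at -4.61, and Slc41a2 and Mt2 lie farthest to the right at 2.21 and 1.67. Of the 10 Slc30a genes 0 are red, where 10.8% of all genes were higher.

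Of the metallothioneins Mt2 rose with the probe set used, and values are given here and below in the order of samples 1, 2 and 3. Before hCG it stood at 11.39, 11.28 and 11.28 and after hCG at 12.92, 13.07 and 12.96. The groups were far apart and the samples of each lay close together. The rise was 3.17-fold (log2 change 1.67 ± 0.10, SE, limma adjusted p = 0.000104), and it passed under all 15 other settings.

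The reading of Mt1 depended on the probe set. The one used here stood at 12.22, 11.98 and 12.16 at hCG-0h and at 12.14, 12.30 and 12.27 at hCG-6h, with overlapping groups and no call (log2 change 0.12 ± 0.11, SE, limma adjusted p = 0.533). By the platform's naming, its suffix (_s_at) marks probes that match more than 1 transcript. The other Mt1 probe set stood at 6.53, 6.74 and 6.00 at hCG-0h and at 7.75, 7.60 and 7.74 at hCG-6h, a change of 1.27 (limma adjusted p = 0.00624 over all probe sets). With the mean of both probe sets Mt1 passed (log2 change 0.69, limma adjusted p = 0.00445). Hence a rise of Mt1 was seen with 1 of its 2 probe sets only.

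Mt3, the metallothionein first known from brain, varied widely within both groups, from 7.75 to 8.90 at hCG-0h and from 8.04 to 9.08 at hCG-6h, and did not pass (limma adjusted p = 0.937). Mt4, known from stratified epithelium, was dim, at 5.01 to 5.07 and 5.19 to 5.37. Its groups did not overlap, but the change of 0.20 did not pass (limma adjusted p = 0.234).

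Among the zinc importers, 4 of 14 Slc39a genes rose, 1 fell and 9 did not pass, and the median change of the family was 0.22. The share called was 35.7%, beside 21.3% of all genes, and no difference between families was tested. Slc39a10 encodes ZIP10, a plasma membrane importer of the same subfamily as ZIP6. It stood at 9.24, 9.80 and 9.66 at hCG-0h and at 10.79, 10.71 and 10.90 at hCG-6h. The lowest value after hCG lay well above the highest before it, a 2.35-fold rise (log2 change 1.23 ± 0.16, SE, limma adjusted p = 0.00251). Its second probe set also passed, with a change of 1.14.

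Slc39a14 encodes ZIP14, which carries iron and manganese besides zinc. It rose 1.62-fold, from 8.82, 8.67 and 8.84 to 9.79, 9.28 and 9.36 (limma adjusted p = 0.0210). The groups were separate, with hCG-6h sample 1 the highest. The call ended without any 1 of the hCG-0h samples (limma adjusted p = 0.0531, 0.0691 and 0.0526 without sample 1, 2 and 3). Of its 4 probe sets 2 passed, both higher, and another had a change of -0.30 that did not pass.

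Slc39a9 encodes ZIP9, a zinc transporter that also acts as a membrane androgen receptor. It stood at 8.81, 8.72 and 8.59 before and at 9.23, 9.65 and 9.33 after hCG, 1.62-fold higher (limma adjusted p = 0.0144). The call ended narrowly without hCG-0h sample 3 (limma adjusted p = 0.0507). The 2 other probe sets of Slc39a9 did not pass, with changes of 0.11 and -0.08, and the mean of all 3 had a change of 0.24 (limma adjusted p = 0.260).

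Slc39a1, which encodes the widely expressed plasma membrane importer ZIP1, showed a small and even rise. It lay at 11.36, 11.33 and 11.44 at hCG-0h and at 11.88, 12.02 and 11.92 at hCG-6h, 1.48-fold higher (log2 change 0.56 ± 0.10, SE, limma adjusted p = 0.00776). The difference was several times the SD of either group (0.057 and 0.072, n = 3 each).

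Slc39a6 encodes ZIP6, which forms complexes with ZIP10. It was at 11.91, 12.14 and 11.92 before and 12.16, 12.24 and 12.23 after hCG with the probe set used, and its change of 0.22 did not pass (limma adjusted p = 0.213). All 4 of its probe sets had a positive change. The 2 that passed were at 9.33 to 9.63 and 10.09 to 10.18 (change 0.64) and at 6.61 to 6.88 and 7.38 to 7.56 (change 0.68). Both carry the suffix _x_at, which marks probes that may also bind other transcripts. The mean of all 4 passed too (log2 change 0.52, limma adjusted p = 0.00629).

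Slc39a11 was the importer that fell. This gene encodes ZIP11, a distant member of the family. It stood at 8.31, 7.78 and 8.26 at hCG-0h and at 6.93, 6.94 and 7.36 at hCG-6h. The highest value after hCG lay below the lowest before it, a 2.06-fold fall (log2 change -1.04 ± 0.19, SE, limma adjusted p = 0.00994).

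The other 8 Slc39a genes, which did not pass, had changes between -0.26 and 0.36. Slc39a7, the importer of the endoplasmic reticulum and Golgi, was at 11.32 to 11.60 before and 11.35 to 11.67 after hCG. Slc39a8 encodes ZIP8, the closest relative of ZIP14. It was the most scattered of the 35 genes at hCG-6h, at 6.90, 5.57 and 7.52 (SD 1.00, n = 3), so that a change of its size (0.36) could not be told from the spread. Slc39a13, a transporter of intracellular vesicles, had groups that did not overlap, from 8.35 to 8.60 and from 8.62 to 8.90, and did not pass (limma adjusted p = 0.172). Slc39a3 had groups that did not overlap either, from 8.38 to 8.52 and from 8.06 to 8.37 (limma adjusted p = 0.180). Slc39a4, the importer of the gut that is mutated in acrodermatitis enteropathica, was dim at 5.08 to 5.44 and 5.37 to 5.39. Slc39a2, Slc39a5 and Slc39a12 lay between 5.44 and 6.33 in all samples.

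Among the zinc exporters, 0 of 10 Slc30a genes were higher, 2 were lower and 8 did not pass, with a median change of 0.06. The 20% called stood close to the 21.3% of all genes, of which 10.8% were higher. Slc30a9 encodes ZnT9, which is placed at mitochondria. It was at 10.70, 10.77 and 10.60 before and 9.96, 9.89 and 9.88 after hCG. The samples of each group lay close together, and the fall was 1.72-fold (log2 change -0.78 ± 0.10, SE, limma adjusted p = 0.00205).

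The other that passed was Slc30a8, known as the transporter of insulin granules in pancreatic beta cells. It was dim throughout, at 4.92, 4.78 and 4.82 and at 4.48, 4.49 and 4.49, and its change of -0.35 passed narrowly (limma adjusted p = 0.0395). Leaving out any 1 sample ended the call (limma adjusted p = 0.0759 to 0.102). Both levels lay under 6.08, below which the dimmest 1 in 3 of all genes fall and differences are compressed.

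Slc30a1, the plasma membrane exporter that is a known target of MTF1, did not pass. It stood at 9.36, 8.65 and 9.07 before and at 9.75, 9.0 and 9.04 after hCG, with overlapping groups (log2 change 0.24 ± 0.26, SE, limma adjusted p = 0.597). Its second probe set did not pass either. Slc30a5, Slc30a6 and Slc30a7, which load zinc into the secretory pathway, had changes of 0.06, 0.21 and 0.38. Slc30a4, a vesicular exporter, had a change of 0.06. The rest, Slc30a2, Slc30a3 and Slc30a10, lay between 4.53 and 6.32 in all samples.

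**Figure D2:**
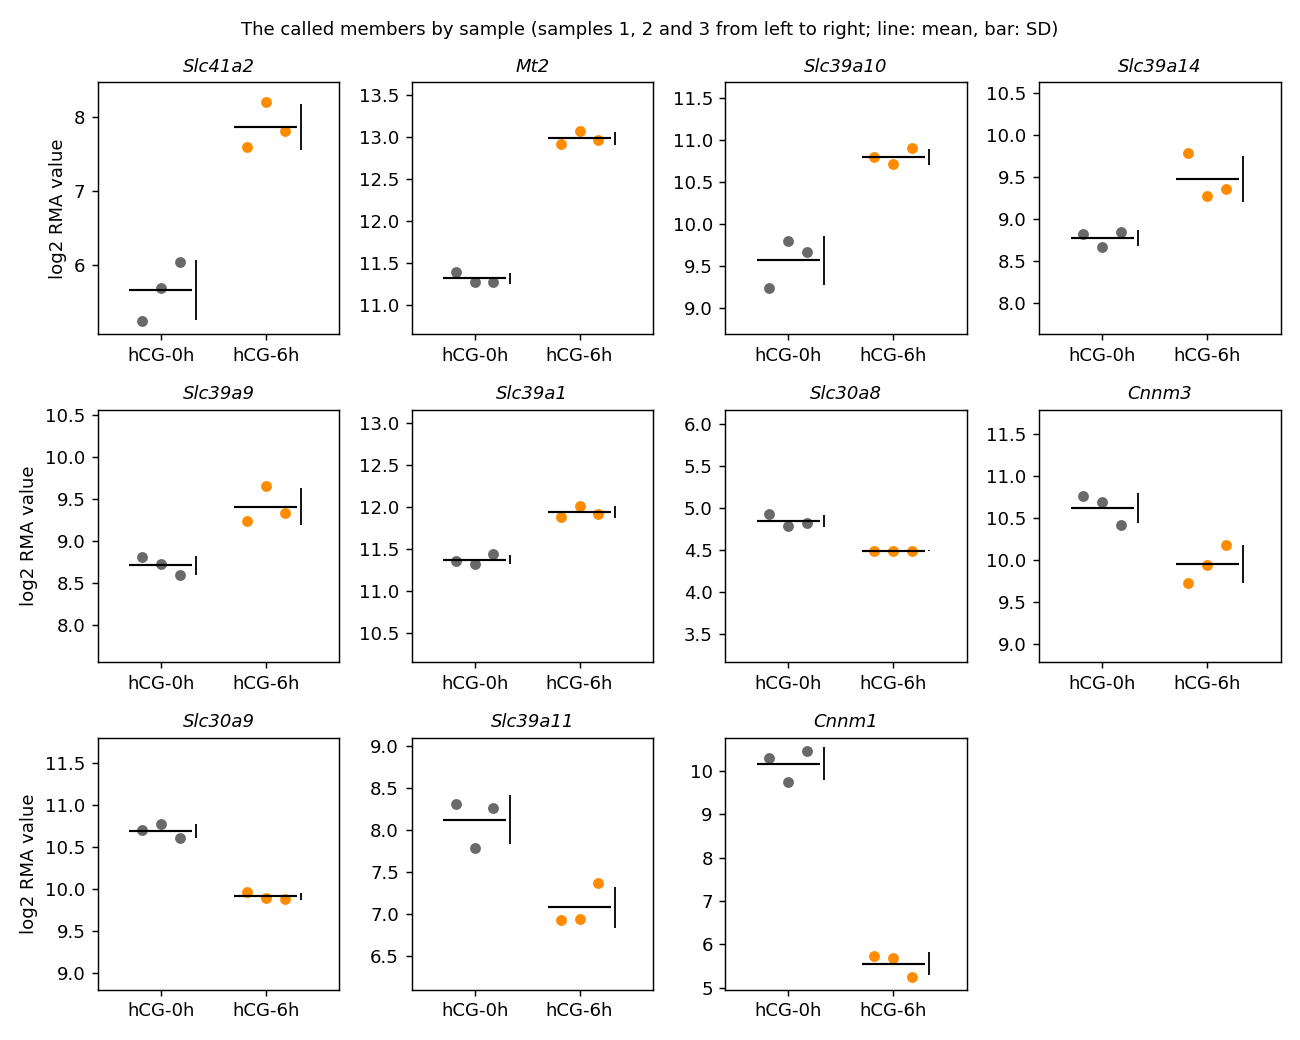
The 11 genes that passed the test, in log2 values (y axis, its range set for each panel) by group, with 1 point per sample, the mean as a line and the SD as a bar. In each panel the 3 points of hCG-6h lie on 1 side of the 3 points of hCG-0h, from Slc41a2, which rose 4.62-fold, to Cnnm1, which fell from 10.17 to 5.55.

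The magnesium genes held the largest changes of both directions. Slc41a2, a relative of the bacterial magnesium channel MgtE, stood at 5.25, 5.70 and 6.05 at hCG-0h and at 7.60, 8.21 and 7.81 at hCG-6h. The groups were far apart and the rise was 4.62-fold (log2 change 2.21 ± 0.24, SE, limma adjusted p = 0.00114), passing under all 15 other settings. Its level before hCG lay among the dimmest 1 in 3 genes, so the fold is approximate.

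The other members of that family did not pass. Slc41a1, a plasma membrane sodium-magnesium exchanger, was at 9.97, 9.82 and 9.74 and at 9.55, 9.50 and 9.15, so its groups did not overlap, and its change of -0.44 did not pass (limma adjusted p = 0.0707). Slc41a3, placed in mitochondria, had a change of -0.20 (limma adjusted p = 0.427).

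Cnnm1 had the largest change of the 35 genes. It stood at 10.30, 9.74 and 10.46 at hCG-0h and at 5.73, 5.68 and 5.25 at hCG-6h, a 24.5-fold fall (log2 change -4.61 ± 0.22, SE, limma adjusted p = 4.93e-05). After hCG it lay among the dim values, so the fold is approximate here too. All 3 of its probe sets fell, with log2 changes of -4.61, -3.82 and -2.51. In the second of these, hCG-6h sample 3 stood at 6.89 and the other hCG-6h samples at 5.49 and 5.24.

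Cnnm3 fell 1.59-fold, from 10.76, 10.69 and 10.42 to 9.73, 9.94 and 10.18 (limma adjusted p = 0.0240). The groups did not overlap, but the gap between them was smaller than the range of the hCG-6h samples. Without sample 1 or sample 2 of either group the call was lost (limma adjusted p = 0.0675 to 0.0746), and the 3 other probe sets did not pass. Cnnm4, its direct neighbour on chromosome 1, did not pass (7.45 to 8.03 and 7.39 to 8.12), and neither did its 2 other probe sets.

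Cnnm2, the member whose mutations cause renal magnesium loss, had a positive change. It was at 8.60, 7.89 and 7.77 before and at 8.53, 9.18 and 9.81 after hCG, so the groups overlapped and the change of 1.09 ± 0.36 (SE) did not pass (limma adjusted p = 0.0790). Without hCG-6h sample 1, which sat among the hCG-0h values, it passed (log2 change 1.41, limma adjusted p = 0.0336). Its second probe set was at 7.35, 6.90 and 7.37 and at 8.86, 8.28 and 8.50, and it passed with a change of 1.34 (limma adjusted p = 0.00531 over all probe sets). The mean of both probe sets passed as well (limma adjusted p = 0.00380).

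**Figure D3:**
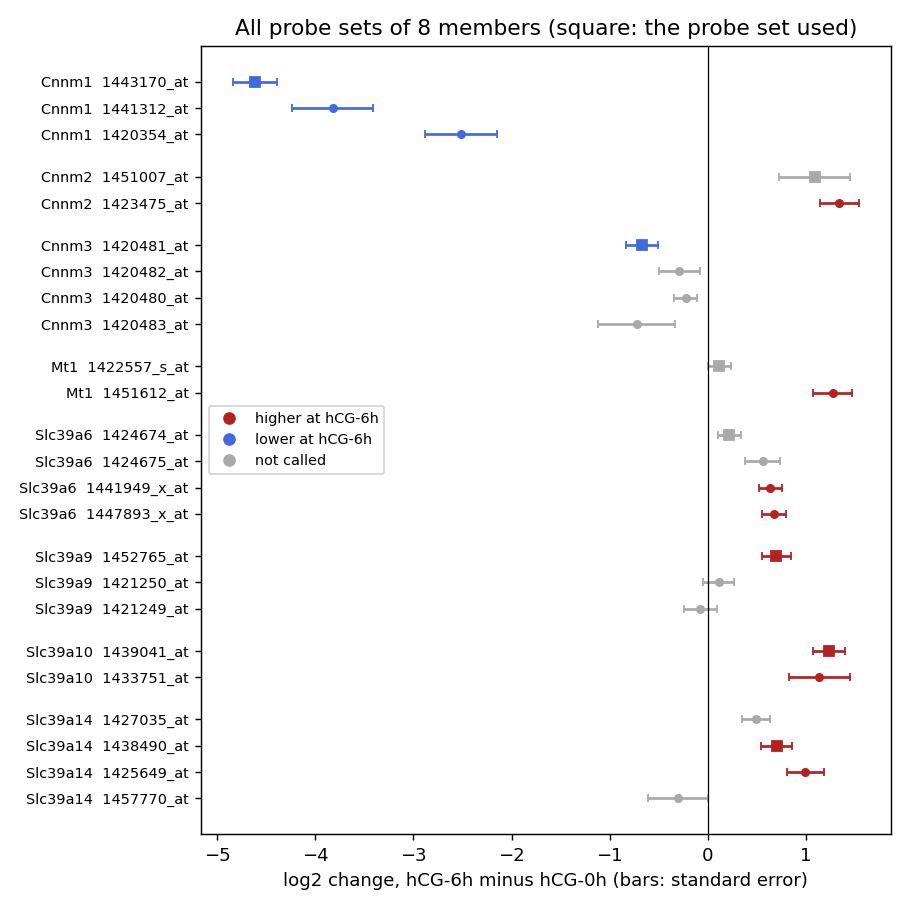
Change in log2 units (x axis, hCG-6h minus hCG-0h, with the standard error) of every probe set of 8 of the genes, with the probe set used as a square and colours as given in the key. All 3 of Cnnm1 fell and both of Slc39a10 rose, whereas Mt1, Cnnm2, Cnnm3, Slc39a6, Slc39a9 and Slc39a14 each have probe sets that passed beside others that did not.

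Across all 17 members with several probe sets, the calls were the same for every probe set in 11, differed between higher and not passing or lower and not passing in 6, and were opposite in 0. Of 62 probe sets of the 35 genes, 12 were higher and 6 lower, which is 19.4% and 9.68%, beside 9.28% and 9.43% of all 34958 probe sets tested (limma, adjusted over all probe sets). Probe sets of 1 gene are not independent of each other.

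Other genes of magnesium handling were mixed as well. Of 17 measured, 3 rose, 3 fell and 11 did not pass (35.3% called, beside 21.3% of all genes), with a median change of 0.04. The others that rose were Slc8b1 and Tusc3, both under 2-fold (named after their values were seen). Mmgt2, a membrane magnesium transporter, rose 3.10-fold, from 7.13, 7.30 and 7.27 to 8.73, 9.27 and 8.59. Nipal1 and Nipal3, relatives of the magnesium transporter NIPA, fell 2.25-fold and 1.97-fold (limma adjusted p = 0.00578 and 0.0174). Trpm7, a channel that admits magnesium and zinc and carries its own kinase domain, fell 1.67-fold and passed narrowly (limma adjusted p = 0.0483). The phosphatase genes Ptp4a2 and Ptp4a3, whose products bind CNNM proteins, had changes of 0.12 and -0.22 and did not pass (both named after their values were seen).

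Of 8 measured genes of zinc sensing and other metal entry, 1 rose and 7 did not pass (12.5% called, beside 21.3% of all genes). Nfe2l2, the gene of the antioxidant factor NRF2, was the one that rose, 1.51-fold (limma adjusted p = 0.0151). Mtf1, the zinc sensor itself, was at 8.34, 8.25 and 8.60 and at 8.90, 8.37 and 7.81 and did not pass (limma adjusted p = 0.948, named after its values were seen). Of 9 other genes known as targets of MTF1 or NRF2, 3 rose, 2 fell and 4 did not pass (55.6% called), with a median change of 0.01. Srxn1, which repairs oxidised peroxiredoxins, rose 14.9-fold and Slc7a11, the cystine importer, 20.7-fold from a dim level. Gclm, a subunit of the enzyme that starts glutathione synthesis, fell 2.20-fold and Txnrd1, thioredoxin reductase, 1.39-fold. Pgf, a growth factor gene, was the third to rise, by 0.37 on the log2 scale (also named after its values were seen).

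Genes of zinc-using enzymes and zinc-binding proteins also went both ways, with 2 of 14 higher and 2 lower (28.6% called, beside 21.3% of all genes). Mmp14, a membrane metalloprotease, rose 4.62-fold and Ace, the angiotensin-converting enzyme, 1.80-fold. Car14, a carbonic anhydrase, fell 3.23-fold and Ece1, the endothelin-converting enzyme, 1.60-fold. Among 11 genes known to respond to glucocorticoids, which also act on metallothionein genes, 5 rose, 3 fell and 3 did not pass (72.7% called). Their median change was 0.60. Ddit4, Dusp1 and Per1 rose 9.0-fold, 8.0-fold and 2.37-fold, and Pdk4, a kinase that restrains pyruvate use, fell 6.35-fold. The 3 rises depend in part on hCG-0h sample 3, the lowest in each. At hCG-0h Ddit4 stood at 9.72, 9.16 and 7.68, Dusp1 at 9.40, 9.11 and 7.24, and Per1 at 8.92, 8.95 and 8.03. Dusp1 is also counted among the immediate early genes below. Of the others that passed, Errfi1 and Sgk1 rose and Fkbp5 and Klf9 fell (named after their values were seen).

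Copper and iron genes also went in both directions. In the copper list 3 of 16 rose and 2 fell (31.2%, median change 0.06). The metalloreductase genes Steap2 and Steap3 moved in opposite directions, 3.94-fold up (limma adjusted p = 0.00407) and 5.22-fold down (limma adjusted p = 0.000148). Atp7a, the copper-exporting pump, fell 3.04-fold, from 8.95, 9.63 and 9.67 to 7.81, 7.67 and 7.96. Sco2 and Cox17, copper chaperones of cytochrome oxidase, had rises of 0.47 and 0.44 on the log2 scale (Cox17 named after its values were seen). In the iron list, which also holds Steap3, 3 of 19 rose and 5 fell (42.1%, median change -0.01). Slc40a1, the iron exporter ferroportin, fell 4.16-fold, from 9.16, 9.36 and 9.49 to 7.37, 6.75 and 7.72, and Heph, a ferroxidase, 1.89-fold. Slc25a37, the mitochondrial iron importer, rose 4.09-fold, from 7.30, 7.67 and 7.80 to 9.63, 9.53 and 9.71. Tfrc and Fth1, the transferrin receptor and a ferritin chain, also rose, and Slc25a28 and Iscu fell (named after their values were seen). Of all genes 21.3% were called, at a median level of 7.22. The lists of metal genes, zinc enzymes, MTF1 or NRF2 targets and glucocorticoid response each had a higher median level. Their called shares are therefore not set against all genes at like brightness. These lists were chosen with earlier results of these data known, and no difference between lists was tested.

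**Figure D4:**
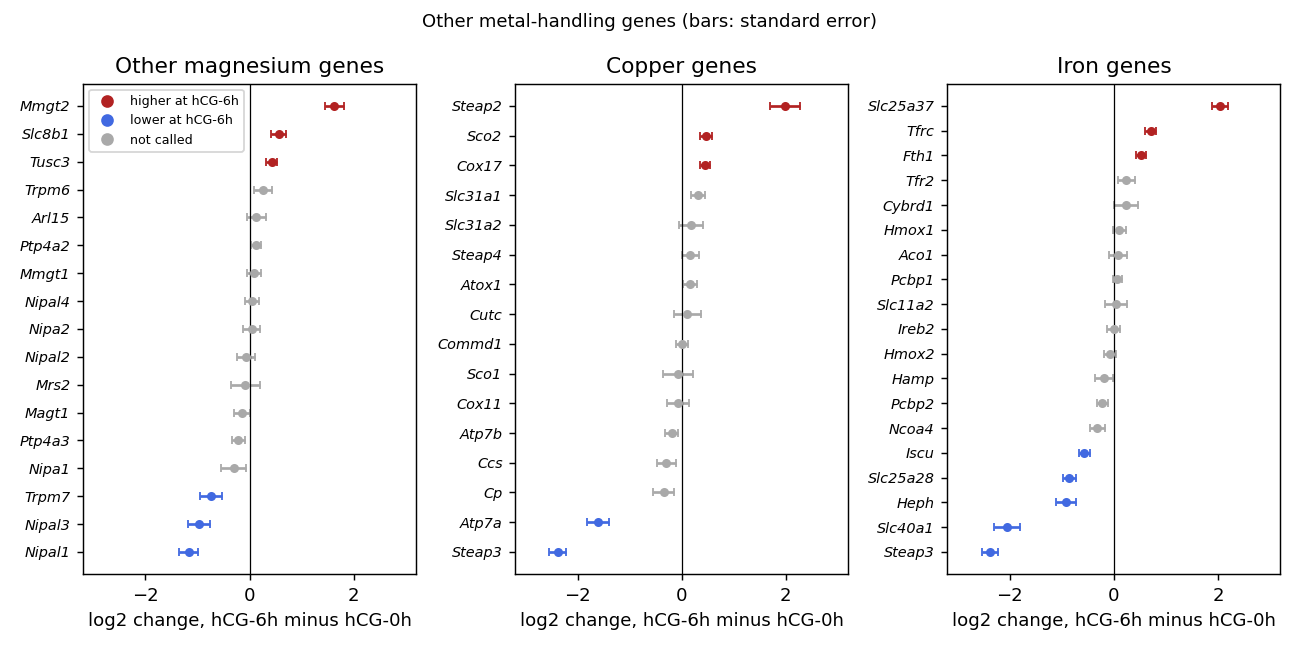
Change in log2 units (x axes, hCG-6h minus hCG-0h, with the standard error) of 17 other magnesium genes, 16 copper genes and 19 iron genes, each ordered by its change and coloured as in the key. Every panel has genes on both sides, with Steap3 lowest in the copper and iron panels and Mmgt2, Steap2 and Slc25a37 highest in their own.

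Several features of the whole samples stood beside these values. Of all genes 10.8% were higher and 10.5% lower, which is the background for the counts below. The lists differ in brightness, with median levels of 10.9 for cumulus and granulosa markers and 5.73 for oocyte markers, beside 7.22 over all genes. All 11 measured cumulus expansion genes rose. Of 14 measured cumulus and granulosa markers 9 fell and 5 did not pass, and their summed level went from 16.10 to 16.15 on the log2 scale before hCG to 15.47 to 15.55 after it. In bulk samples fewer cells of a type and less RNA per cell cannot be told apart. Of 17 measured oocyte markers 1 rose (Ooep, 3.82-fold) and 16 did not pass, with summed levels of 10.06 to 10.28 before and 10.37 to 10.47 after hCG. The oocyte's zona genes Zp1, Zp2 and Zp3 lay between 3.56 and 4.95 in all samples. By mean level 12 of the 17 oocyte markers were among the dimmest 1 in 3 of all genes. The others were higher, up to Tle6 at 7.89 to 8.48, and Ooep went from 6.19 to 6.84 before hCG to 8.32 to 8.54 after it (all named after their values were seen). Of the measured markers of other cells, 1 of 12 for leukocytes rose (Cd52) and 1 fell (Fcer1g). A single marker fell of 9 for theca and interstitial cells (Ptch1), of 3 for erythroid cells (Alas2) and of 8 for ovarian surface epithelium (Wt1), and 0 of 8 for endothelium passed. The summed endothelial level was 8.19 to 8.75 before and 8.90 to 9.40 after hCG, and that of theca markers 10.52 to 10.73 and 9.95 to 10.18. The part of these markers in the changes of the 35 genes was not tested. Among 18 immediate early genes, 10 rose and 16 were lowest, among the hCG-0h samples, in sample 3. Of the 35 metal genes 9 were lowest in sample 3 alone, 8 in sample 1 and 16 in sample 2, and in 2 (Mt2 and Slc41a3) samples 2 and 3 tied for the lowest value.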

How the data were processed

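Total RNA of 6 samples, 3 per group, was amplified to cDNA, labelled with biotin and hybridised to single-colour arrays, as described in the labels' protocols. For 45101 probe sets the authors deposited log2 values, made with GCOS, Affymetrix Expression Console 1.1 and RMA, per the submitters' processing notes. RMA corrects background and quantile-normalises arrays, which compresses differences of dim genes. No detection calls were used, the genome build was not given in the sources used, and the number of arrays limits the precision.

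Probe sets were named from the platform annotation. Of them 34958 had 1 gene symbol and were used, 932 had several and 9211 were not listed. The Entrez identifiers of all 35 members carried the same symbol in the reference table. Where a gene had several probe sets, the one with the highest mean was taken. The groups were compared in R 4.3.3 by limma 3.58.1 (functions lmFit and eBayes, group as the only term, no filter, two-sided tests), after tests on simulated data. The median standard error over all genes was 0.146.

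The members and lists were chosen with earlier results of these data known. Every member past the threshold is named, with Slc30a1, Slc39a6, Slc39a10, Mt1, Mt2, Slc41a1 and Cnnm2 in any case, and of each list for metal handling, zinc enzymes, MTF1 or NRF2 targets and glucocorticoid response up to 4 genes past the threshold with the largest changes. Lists of expansion genes, immediate early genes and cell type markers are given by count. Promoter windows came from RefSeq (GRCm38.p6), and no protein sequence was used here. Other settings are given in the closing section. Same-numbered samples did not deviate together (correlations of deviations 0.0115, -0.0156 and 0.0286 across genes), so the numbers were not taken as pairs.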

Additional observations from a re-analysis of the deposited data

How the results depend on the processing

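Besides the comparison as reported, 15 settings were run: a replicate block by sample number, eBayes with trend and robust options, a second quantile normalisation, median-centred arrays, no genes of the dimmest 1 in 3, weighted arrays, probe sets averaged by gene or all tested singly, hCG-6h sample 1 alone, and 6 fits without 1 sample. No member reversed a call under any of them. Of the 11 calls, 3 (Cnnm1, Mt2 and Slc41a2) held in all 15 settings. Slc30a9, Slc39a1, Slc39a10 and Slc39a11 were lost with hCG-6h sample 1 alone and in no other setting. There the lone hCG-6h sample is assumed to vary like the others, and 1576 genes in place of 3873 were called, with 3 members higher and 1 lower. Leaving out 1 sample at a time, 2919 to 3210 genes were called, and 4 to 7 members were higher and 3 to 4 lower, in place of 6 and 5. The replicate block left 3 members lower (Cnnm3 and Slc30a8 were lost, limma adjusted p = 0.0729 and 0.101) and 6 higher. Both scalings kept the call of all 35 members. The mean of probe sets lost Cnnm3 and Slc39a9 and added Mt1, Slc39a6 and Cnnm2, and array weights added Cnnm2 (limma adjusted p = 0.0491). Of the 35 members 7 lie among the dimmest genes, where no detection limit is known.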
